A study of Mus musculus with 11 samples.

Results

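The expression of 8 complement genes was examined in mesenchymal stem cells (MSCs) from young and old mice: Clu, C3, C4b, C1s1, C1ra, Serping1, Cd55 and Cd59a. They are 8 of the 28222 genes in the deposited count table. Clu was selected on its measured difference between old and young libraries of batch B, and the other 7 genes were chosen by their place in the complement system with earlier results of these data known. The old-young differences of batch B are therefore given as a description, without a test, for all 8 genes. In the other comparisons the p-values of the 7 genes do not allow for this choice.

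MSCs are stromal cells that can form bone and fat cells. There were 11 libraries of polyadenylated RNA, each from mouse MSCs grown at 2% oxygen in medium with 10% serum. Young mice were 3 to 5 months and old mice 18 to 22 months of age, and the labels placed the libraries in 3 batches: 4 young libraries in batch A, 2 young and 2 old in batch B, and 3 old in batch C. Age can thus be told apart from batch only within batch B. No genotype, strain, sex or number of mice per library was given in the sources used here, nor was it stated what a batch was or whether replicates came from separate mice, so that p-values measure only the spread between these libraries.

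Complement is a cascade of plasma proteins that marks and lyses microbes and damaged cells. In the classical pathway, C1q binds a target and activates the proteases C1r and C1s, which cleave C4 and C2, and the resulting convertase cleaves C3, the protein on which all pathways meet. C1 inhibitor (Serping1) blocks C1r and C1s, CD55 speeds the decay of the convertases at the cell surface, CD59 stops the assembly of the membrane attack complex, and clusterin (Clu) is a secreted chaperone that keeps terminal complexes from inserting into membranes. The liver is the main source of plasma complement, but stromal cells and fibroblasts also make several components.

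All 8 genes code for proteins, and their positions refer to the mouse assembly GRCm38. Clu (ENSMUSG00000022037) lies at chr14:65968483-65981547 on the plus strand. C3 (ENSMUSG00000024164) and C4b (ENSMUSG00000073418) lie on the minus strand of chromosome 17, at chr17:57203970-57228136 and chr17:34728380-34743882. C1ra (ENSMUSG00000055172, chr6:124512405-124523443, plus strand) and C1s1 (ENSMUSG00000038521, chr6:124530345-124542359, minus strand) are neighbours 6.9 kb apart with their ends facing each other. The copies C1rl and C1rb lie 1.76 kb before C1ra and 27.9 kb after C1s1. Serping1 (ENSMUSG00000023224) is at chr2:84765387-84775444 on the minus strand, Cd59a (ENSMUSG00000032679) at chr2:104095801-104115354 on the plus strand, and Cd55 (ENSMUSG00000026399) at chr1:130439027-130462744 on the minus strand.

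The 250 bases before the RefSeq start site were found for 5 of the 8 genes (C3, C1s1, C1ra, Cd55 and Cd59a). They are shown for the 3 genes in which any of 6 short motifs was found, on GRCm38.p6 and 5′ to 3′ in the direction of transcription, with the match in capitals. The C3 window is chr17:57228137-57228386 (minus strand), the C1s1 window chr6:124542360-124542609 (minus strand) and the Cd59a window chr2:104095551-104095800 (plus strand).
C3: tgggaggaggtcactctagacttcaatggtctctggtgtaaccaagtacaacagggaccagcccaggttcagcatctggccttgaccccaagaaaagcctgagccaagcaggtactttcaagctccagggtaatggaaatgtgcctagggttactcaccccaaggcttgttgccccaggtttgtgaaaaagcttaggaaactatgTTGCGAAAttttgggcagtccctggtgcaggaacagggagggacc
C1s1: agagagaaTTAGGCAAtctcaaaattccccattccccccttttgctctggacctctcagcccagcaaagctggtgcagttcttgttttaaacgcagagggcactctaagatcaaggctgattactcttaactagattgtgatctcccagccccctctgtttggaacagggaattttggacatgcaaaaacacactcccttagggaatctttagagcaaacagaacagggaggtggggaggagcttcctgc
Cd59a: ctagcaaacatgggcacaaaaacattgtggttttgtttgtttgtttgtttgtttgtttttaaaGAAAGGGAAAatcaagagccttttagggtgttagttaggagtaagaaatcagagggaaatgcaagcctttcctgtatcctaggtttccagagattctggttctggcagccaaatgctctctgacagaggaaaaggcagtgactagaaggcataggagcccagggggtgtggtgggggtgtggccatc

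Both strands were searched for a TATA box (letters TATAAA), the CCAAT box (letters CCAAT), the C/EBP motif (letters TTGCNNAA), the GAS motif (letters TTCNNNGAA), the core of the interferon-stimulated response element (ISRE, GAAA then NN then GAAA) and an NF-kappaB motif (GGG then NN then TTTCC), and no pair of matches overlapped. The C/EBP motif stood 45 to 38 bases before the start in C3 and, on the opposite strand, 242 to 235 bases before the start shown for C1s1. RefSeq lists a second start of C1s1 inside the gene, and its window held none of the 6 motifs. The ISRE core stood 187 to 178 bases before the start in Cd59a. Of 32851 promoter windows of the same length, 9.56% held the C/EBP motif, 2.98% the ISRE core, 1.41% the NF-kappaB motif, 7.02% the GAS motif, 12.4% the TATA box and 33.8% the CCAAT box. The matches are a description of the sequence, and no factor binding was measured.

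Libraries held between 11969336 and 20315934 counts, and 3 counts, used here as the detection floor, amount to 0.156 to 0.253 CPM (counts relative to the TMM-scaled size of the library). This covers counting error only. All 8 genes lay above this level in every library, with 29 to 204 counts for Cd55 and at least 342 for each of the others, and all passed the filter on low counts that left 16132 genes to be tested. All 8 MSC marker genes, among them Pdgfra and Ly6a, lay above the floor in every library, and their summed level was between 2680 and 3310 CPM. Itgb1 alone had group means of 1130 to 1260 CPM, so that the sum does not show how single markers differed. In batch A young, B young, B old and C old MSCs, mean Pdgfra was 189, 215, 119 and 278 CPM. Mean Ly6a was 456, 714, 608 and 293 CPM in the same order. The 12 macrophage and leukocyte markers were also above the floor in every library. Their summed level was 656 to 1460 CPM in batch A young, 374 to 763 in batch B young, 769 to 1090 in batch B old and 150 to 178 in batch C old MSCs, and their part in the results below was not tested. In bulk RNA, fewer cells of a type and less RNA per cell cannot be told apart.

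Serping1 had the highest level per exon length in every group, and Cd55 the lowest. On the RPKM scale (CPM per kilobase of exon), the mean level of Serping1 was 142 ± 16.1 in batch A young (SD, n = 4), 124 ± 2.13 in batch B young (SD, n = 2), 144 ± 33.2 in batch B old (SD, n = 2) and 218 ± 9.42 in batch C old MSCs (SD, n = 3). In batch A young MSCs, Serping1 was followed by C1ra at 49.6, Clu at 45.9, C1s1 at 25, C4b at 24.4, Cd59a at 18.8, C3 at 9.68 and Cd55 at 0.548. In that group C1ra was above Clu in 2 of 4 libraries, C1s1 above C4b in 2 of 4 and C4b above Cd59a in 3 of 4, so that these neighbours were not separated. In batch C old MSCs the order was Serping1, C1s1 at 84.9, C4b at 81.3, C1ra at 65.5, Clu at 43.7, C3 at 42.8, Cd59a at 33.6 and Cd55 at 2.31. Here C1s1 and C4b, and also Clu and C3, kept their order in 2 of 3 libraries. In batch B young MSCs only Cd59a and C3 changed places, keeping their order in 1 of 2 libraries, and in batch B old MSCs the order was the same in both libraries. Clu stood in the third place in both young groups and in the sixth in batch B old MSCs, at 9.72 ± 3.75 RPKM (SD, n = 2).

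**Figure D1:**
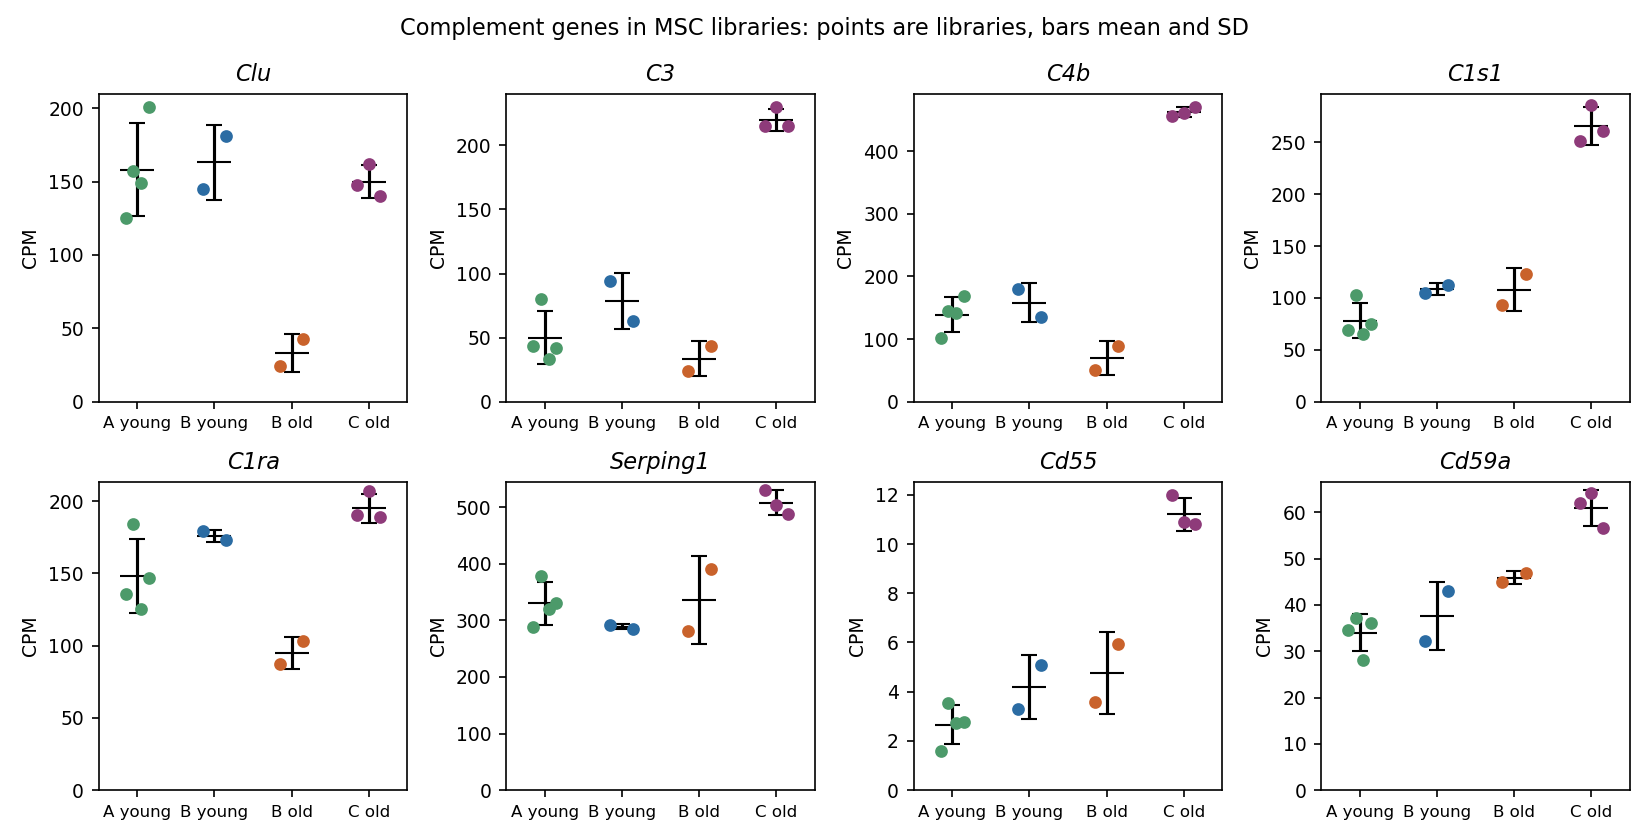
Level in CPM (linear axis from 0) of the 8 complement genes in each library of batch A young, batch B young, batch B old and batch C old MSCs, with points for libraries and bars for the mean and SD. Clu was low only in the 2 batch B old libraries, at 24.3 and 42.5 CPM, whereas the other 7 genes were highest in the 3 batch C old libraries.

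Clu was low in batch B old MSCs and similar in the other 3 groups. Its level was 125, 157, 149 and 201 CPM in the batch A young libraries, 145 and 181 CPM in batch B young, 24.3 and 42.5 CPM in batch B old, and 148, 162 and 140 CPM in batch C old. The 2 batch B old libraries lay below all other libraries, and the 9 remaining libraries overlapped. Within batch B the mean fell from 163 ± 25.5 (SD, n = 2) to 33.4 ± 12.9 CPM (SD, n = 2), a log2 fold change of −2.28 (SE 0.23) or a 4.87-fold lower level. This is the difference for which the gene was selected. Between the old groups, batch C was 4.49-fold above batch B, a log2 fold change of 2.17 (SE 0.22) that rests on the same batch B old libraries and was not tested either. Batch C old and batch A young libraries, which had no part in the selection, differed by −0.07 (SE 0.17) on the log2 scale, with an adjusted p of 0.737 (edgeR). This small difference turned to 0.28 when libraries were scaled by total counts, with an adjusted p of 0.178 (edgeR).

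C3 and C4b encode the central components, which are cleaved and bind covalently to targets. Both had their lowest mean in batch B old and their highest in batch C old MSCs. C3 was at 43.4, 80.2, 33.6 and 41.8 CPM in batch A young, 93.8 and 63 CPM in batch B young, 23.8 and 43.1 CPM in batch B old, and 215, 230 and 215 CPM in batch C old libraries. The batch C old libraries lay above all others, batch A young and batch B young overlapped, and the batch B old libraries lay below those of batch B young. C4b was at 101, 145, 141 and 169 CPM in batch A young, 180 and 136 CPM in batch B young, 51.2 and 88.9 CPM in batch B old, and 457, 461 and 471 CPM in batch C old libraries. For C4b the batch B old libraries lay below every other library and the batch C old libraries above.

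In the comparison of old with young MSCs of batch B, C3 was lower by a log2 fold change of −1.23 (SE 0.32) and C4b by −1.18 (SE 0.23). Between the old groups the direction was the opposite. This comparison again uses the batch B old libraries, with earlier results known when the genes were chosen. C3 was 6.58-fold higher in batch C than in batch B, with a log2 fold change of 2.72 (SE 0.32) and an adjusted p of 4.05e-06 (edgeR), and C4b was 6.61-fold higher, with 2.72 (SE 0.23) and an adjusted p of 2.04e-07. Compared with batch A young MSCs, batch C old MSCs had 4.43-fold more C3, with a log2 fold change of 2.15 (SE 0.24) and an adjusted p of 1.96e-06 (edgeR), and 3.34-fold more C4b, with 1.74 (SE 0.17) and an adjusted p of 6.39e-07. Age and batch cannot be told apart in that comparison. Between the young groups, C3 was 0.66 (SE 0.27) higher on the log2 scale in batch B, with an adjusted p of 0.0791, and C4b 0.19 (SE 0.20) higher, with an adjusted p of 0.512 (both edgeR). Without batch A young replicate 2, the C3 difference between young groups was 0.99 with an adjusted p of 0.00345.

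Within each library, the level of C3 per exon length was 0.264 to 0.611 of that of C4b in batch A young, 0.512 to 0.577 in batch B young, 0.514 to 0.536 in batch B old and 0.506 to 0.552 in batch C old MSCs. The ratio thus lay within a narrow range in the 7 libraries of batches B and C, although the level of each gene varied more than 9-fold over all libraries (9.66-fold for C3 and 9.2-fold for C4b). In batch A it was 0.478 and 0.611 in replicates 1 and 2, and 0.264 and 0.274 in replicates 3 and 4.

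C1ra and C1s1 encode the proteases that form a tetramer in the C1 complex. They did not move together between young and old MSCs of batch B. C1ra was at 136, 184, 125 and 147 CPM in batch A young, 179 and 173 CPM in batch B young, 87.1 and 103 CPM in batch B old, and 190, 207 and 189 CPM in batch C old libraries. The batch B old libraries were below all others, and the batch C old libraries above. C1s1 was at 69.4, 103, 65 and 75 CPM in batch A young, 105 and 113 CPM in batch B young, 93.7 and 123 CPM in batch B old, and 251, 286 and 261 CPM in batch C old libraries. Only the batch C old libraries stood apart from the rest, and the 2 groups of batch B overlapped.

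Within batch B the log2 fold change between old and young MSCs was −0.90 (SE 0.15) for C1ra and −0.01 (SE 0.18) for C1s1. Batch C old MSCs had 2.06-fold more C1ra than batch B old MSCs, with a log2 fold change of 1.04 (SE 0.14) and an adjusted p of 1.81e-05 (edgeR). The same comparison gave 2.45-fold more C1s1, with an adjusted p of 1.21e-05. Against batch A young MSCs, C1ra was 1.32-fold higher in batch C old MSCs (log2 fold change 0.40, SE 0.11, adjusted p 0.00654, edgeR), and C1s1 was 3.41-fold higher (1.77, SE 0.14, adjusted p 5.11e-08). Between young groups C1s1 was higher in batch B by 0.48 (SE 0.15), with an adjusted p of 0.0305 (edgeR), and C1ra by 0.26 (SE 0.13), with an adjusted p of 0.158. The call for C1s1 between the young groups was lost without batch A young replicate 3 (0.41, adjusted p 0.0718), batch A young replicate 4 (0.47, adjusted p 0.0543) or batch B young replicate 2 (0.43, adjusted p 0.176), and C1ra gained a call without batch A young replicate 2 (0.38, adjusted p 0.0188).

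The balance of both proteases differed between the young and the old libraries, within batch B as well as across batches. Counts of C1s1 per exon length, divided by those of C1ra in the same library, were 0.486, 0.534, 0.497 and 0.486 in batch A young and 0.557 and 0.621 in batch B young. In old MSCs the ratio was 1.03 and 1.14 in batch B, and 1.26, 1.31 and 1.31 in batch C. All 5 old libraries were above all 6 young libraries, and C1s1 exceeded C1ra in each old library and in no young library. Group means were 0.501 ± 0.0227 (SD, n = 4), 0.589 ± 0.0456 (SD, n = 2), 1.08 ± 0.0798 (SD, n = 2) and 1.29 ± 0.0343 (SD, n = 3) in the order batch A young, batch B young, batch B old and batch C old. As both counts come from the same library, the ratio does not depend on how libraries were scaled. It was chosen after the values had been seen, and it was not tested. The batches differed as well, since both young libraries of batch B were above those of batch A, and the old libraries of batch C above those of batch B.

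**Figure D2:**
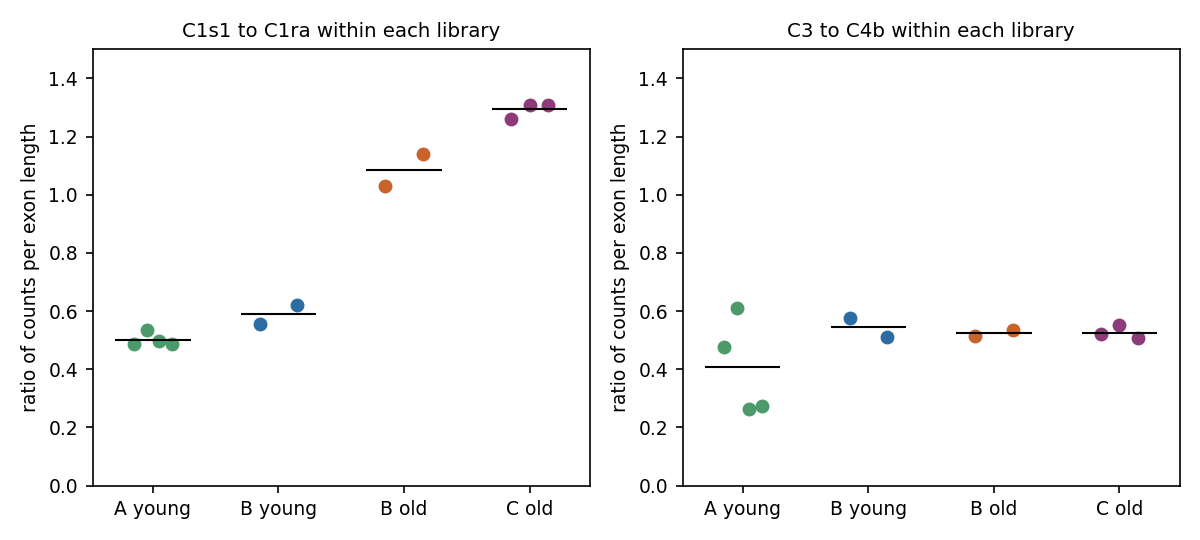
Ratio of counts per exon length within each library (linear axis from 0) for C1s1 to C1ra and for C3 to C4b, with points for libraries and lines for group means. C1s1 to C1ra was 0.486 to 0.621 in the 6 young libraries and 1.03 to 1.31 in the 5 old libraries, whereas C3 to C4b was 0.506 to 0.577 in batches B and C of both ages.

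Reads of near-identical copies may have been shared between these genes and their neighbours. Counts of C1rb were 22.9 to 27.7% of those of C1ra, and counts of C4a were 1.35 to 3.79% of those of C4b. In batch B the share for C1rb was 24.2 and 25% in young and 25.4 and 26.9% in old MSCs. C1s1 shares 576 nt of exon with the antisense gene Gm16567, which was not analysed here, and it was not stated whether strand was used in counting. Cd55 shares 102 nt with the antisense gene Gm16083, which had 0 to 4 counts per library.

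Serping1, the inhibitor of both proteases, differed little between the young groups and batch B old MSCs. It was at 289, 379, 321 and 331 CPM in batch A young, 292 and 285 CPM in batch B young, 281 and 390 CPM in batch B old, and 531, 504 and 488 CPM in batch C old libraries. Only batch C old MSCs stood apart, above all other libraries. The difference between old and young MSCs within batch B was 0.22 (SE 0.15) on the log2 scale, and it was −0.04 without batch B old replicate 2. Serping1 was 1.51-fold higher in batch C old than in batch B old MSCs (log2 fold change 0.60, SE 0.14, adjusted p 0.00189, edgeR) and 1.54-fold higher than in batch A young MSCs (0.62, SE 0.11, adjusted p 0.000222). The call between the old groups was lost without batch B old replicate 1 (0.37, adjusted p 0.0604). Young MSCs of batch B were 0.19 (SE 0.13) below those of batch A on the log2 scale, with an adjusted p of 0.305 (edgeR).

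The membrane regulators Cd55 and Cd59a were also highest in batch C old MSCs. Cd55, whose level was the lowest of the 8 genes, was at 1.61, 3.55, 2.72 and 2.76 CPM in batch A young, 3.28 and 5.1 CPM in batch B young, 3.57 and 5.94 CPM in batch B old, and 12, 10.9 and 10.8 CPM in batch C old libraries. The groups of batch B overlapped, and the batch C old libraries lay above all others. Cd59a was at 34.6, 37.1, 28.2 and 36.1 CPM in batch A young, 32.3 and 42.9 CPM in batch B young, 44.9 and 46.9 CPM in batch B old, and 61.9, 64.1 and 56.6 CPM in batch C old libraries. For this gene all old libraries lay above all young libraries.

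Within batch B the log2 fold change between old and young MSCs was 0.20 (SE 0.31) for Cd55 and 0.29 (SE 0.14) for Cd59a. The Cd55 value was −0.22 without batch B old replicate 2 and 0.53 without batch B old replicate 1. Cd55 was 2.36-fold higher in batch C old than in batch B old MSCs (log2 fold change 1.24, SE 0.28, adjusted p 0.00133, edgeR) and 4.31-fold higher than in batch A young MSCs (2.11, SE 0.24, adjusted p 2.3e-06). Cd59a was 1.33-fold higher in batch C old than in batch B old MSCs (0.41, SE 0.13, adjusted p 0.0164) and 1.79-fold higher than in batch A young MSCs (0.84, SE 0.11, adjusted p 1.01e-05). The first of these calls for Cd59a was lost without batch B old replicate 1 (0.37, adjusted p 0.105), batch B old replicate 2 (0.44, adjusted p 0.0577) or batch C old replicate 2 (0.37, adjusted p 0.0556). Between the young groups Cd55 was 0.67 (SE 0.29) higher in batch B, with an adjusted p of 0.0954, and Cd59a 0.14 (SE 0.13) higher, with an adjusted p of 0.448 (both edgeR). Cd55 passed the threshold there without batch A young replicate 2 (0.85, adjusted p 0.0488) or batch B young replicate 1 (0.97, adjusted p 0.0388).

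**Figure D3:**
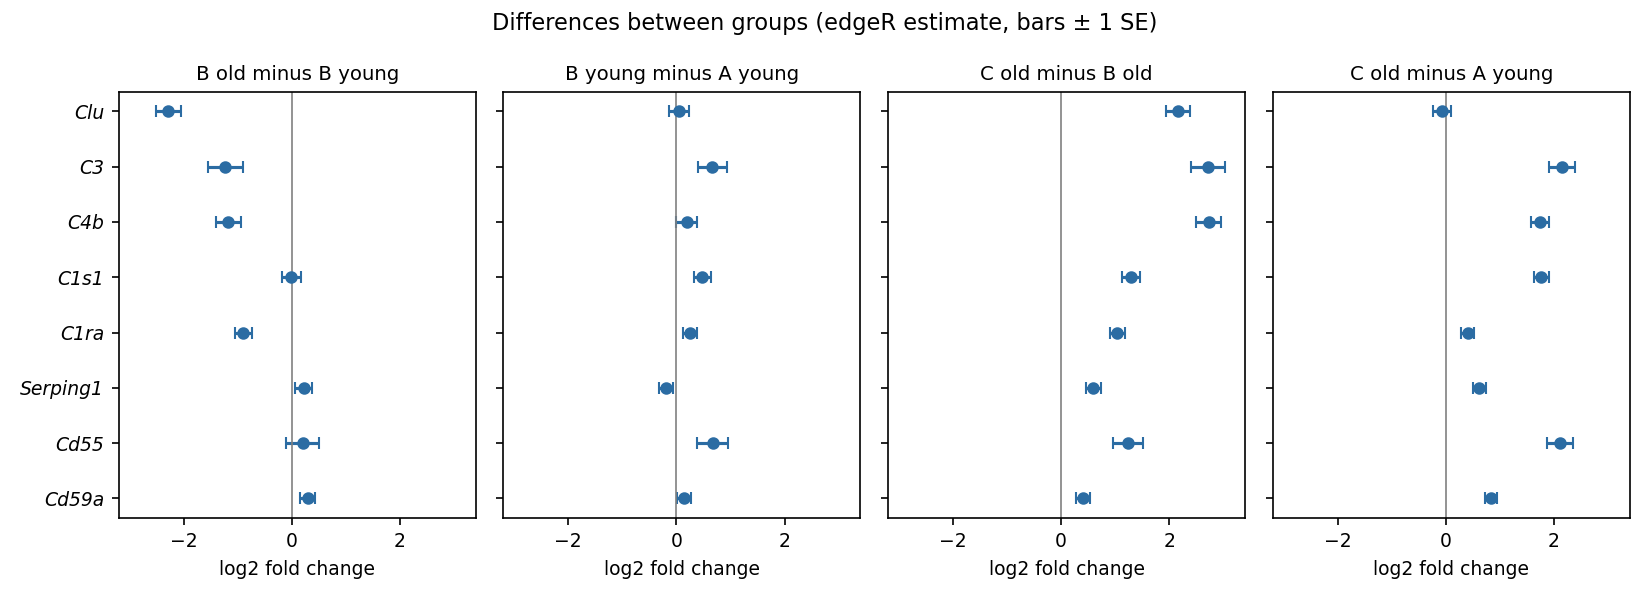
Log2 fold change (edgeR estimate, bars ± 1 SE) of the 8 complement genes in 4 comparisons of groups, on a common axis. Differences within batch B reached from −2.28 for Clu to 0.29 for Cd59a, whereas in batch C old compared with batch B old MSCs they lay between 0.41 and 2.72.

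Counted over the comparisons, most of the 8 genes were higher where batch C entered, and their directions were mixed within batch B. In old compared with young MSCs of batch B, the libraries did not overlap for 5 of the 8 genes, of which Clu, C3, C4b and C1ra were lower and Cd59a higher. For all genes tested the share without overlap was 39.7% (19.2% higher and 20.6% lower). As the rule used this comparison, nothing is read from these counts. The median log2 fold change was −0.45 for the 8 genes and 0.004 for all genes.

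Between young MSCs of batch B and batch A, 1 of the 7 tested genes passed the threshold (C1s1, higher), and it was also the only 1 of the 8 genes without overlap. Over all genes 25.9% passed, 12.8% as higher and 13.1% as lower, and 39% did not overlap, 19.3% as higher and 19.7% as lower. With so few genes, 1 call cannot be set apart from these shares, and nothing is read from it. The median was 0.22 for the 8 genes, compared with −0.013 over all genes.

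Between old MSCs of batch C and batch B, all 8 genes were higher without overlap, and the 7 tested genes all passed. The batch B old libraries enter here too, so that these counts are a description. Over all genes 55.2% passed (26.9% higher and 28.3% lower) and 75.4% did not overlap (38.1% higher and 37.3% lower), so that most genes differed between these batches. The median was 1.27 for the 8 genes and 0.022 for all genes. Between batch C old and batch A young MSCs, 7 of the 8 genes were higher, past the threshold and without overlap, and Clu was the exception. The background was 58.5% past the threshold (27.1% higher and 31.4% lower) and 62% without overlap (28.7% higher and 33.3% lower), and the medians were 1.29 for the 8 genes and −0.025 for all genes. Scaling by total counts in place of TMM factors moved the median of all genes by 0.188 in the first and by 0.352 in the second of these comparisons. The share of higher genes among all that passed then rose from 48.7 to 63.1% and from 46.3 to 73.4%, respectively, while the counts of the 8 genes were the same. Within batch B that share rose from 31.1 to 44.8%, and between the young groups from 49.4 to 65.4%. These comparisons share groups of libraries and are not independent of each other.

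Differences between libraries of the same group also ran through several of the 8 genes. How many of all genes tested went the same way between these libraries was not counted, so that nothing is read from the following counts. Batch B old replicate 1 was below replicate 2 in 8 of 8 genes, and its leukocyte markers summed to 1090 compared with 769 CPM. In batch A young MSCs, replicate 2 was the highest in 6 of 8 genes, and replicates 1 and 3 were the lowest in 4 each, with marker sums of 656, 954, 1460 and 1130 CPM in replicates 1 to 4. In batch B young MSCs the lower library was replicate 1 in 4 genes and replicate 2 in 4 genes. Over all but low-count genes, these libraries nevertheless differed more than any other pair of the same group, with a chi-square per gene of 52.3. It was 23.7 in batch B old MSCs, and 3.24 to 18.6 in pairs of batches A and C. The leukocyte markers of batch B young MSCs summed to 763 CPM in replicate 1 and 374 CPM in replicate 2.

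Of 57 further complement genes, 54 were in the table and 36 passed the filter on low counts. The 18 genes under the filter included C2, the substrate of C1s, the terminal components C6, C7 and C9 and the gene of C5 (Hc), none of which exceeded 0.262 CPM in any library. The 3 genes Fcnb, Mbl2 and C8b were not analysed here. Thus the transcripts of the early classical pathway, C3 and its regulators were measured in these MSCs, whereas those of C2, C5 and most of the terminal pathway were at or near the detection floor.

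In old compared with young MSCs of batch B, 4 of these 36 genes were lower and 0 were higher (edgeR, adjusted p under 0.05), of which C4a and C1rb are close copies of C4b and C1ra, C1rl is related to C1ra, and C4bp encodes a protein that binds C4b. Over all genes 2.23% passed in this comparison, 0.694% as higher and 1.54% as lower. At an unadjusted p under 0.05 (edgeR), 6 were lower and 3 higher, beside 2597 of the 16132 genes tested, of either direction. DESeq2 also gave 4 genes, with 0 higher, but it called more genes over all than edgeR, as given below. C4a was at 4.38 and 5.17 CPM in young and 1.28 and 2.2 CPM in old MSCs (log2 fold change −1.44, SE 0.28, adjusted p 0.0124, edgeR). C4bp was at 2.5 and 2.86 CPM in young and 0.471 and 0.267 CPM in old MSCs (−2.83, SE 0.52, adjusted p 0.00904). The old values of C4bp rest on 7 and 4 counts, near the detection floor of 3 counts. C1rl was at 32.9 and 35.7 CPM in young and 19.3 and 25.4 CPM in old MSCs (−0.61, SE 0.14, adjusted p 0.0327), and C1rb was at 44.8 and 42 compared with 22.1 and 27.6 CPM (−0.81, SE 0.19, adjusted p 0.0382). The old libraries lay below the young libraries in each of these genes. Reads shared with C1ra and C4b, which were not tested in this comparison, may enter the counts of C1rb and C4a. Their part in these 4 calls was not tested. The count fell to 0 without batch B old replicate 1, and to 2 without batch B old replicate 2 or any of the batch C old libraries. Over the 36 genes the median log2 fold change was 0.30, compared with 0.004 over all genes.

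Between young MSCs of batch B and batch A, 5 of the 36 genes were higher and 10 lower, beside 12.8% higher and 13.1% lower over all genes. The smallest p-values among higher genes were those of C4bp (log2 fold change 1.61), C4a (0.88) and Masp1 (0.78), a protease of the lectin pathway, and among lower genes those of the regulator Susd4 (−2.20), C1qc (−1.23) and the integrin chain Itgb2 (−1.04), with adjusted p between 0.00557 and 0.0133 (edgeR). The total of 15 genes fell to 9 without batch A young replicate 3 and to 2 without batch B young replicate 2.

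Between old MSCs of batch C and batch B, 11 of the 36 genes were higher and 14 lower, beside 26.9% higher and 28.3% lower over all genes, so that a large share of calls was common to all genes. C4a was higher, with a log2 fold change of 2.74 (SE 0.26, adjusted p 4.88e-07, edgeR) that was close to the 2.72 of C4b. Cfb, the protease of the alternative pathway C3 convertase, was at 18.7 and 34.9 CPM in batch B old and 111, 109 and 113 CPM in batch C old libraries (2.05, SE 0.23, adjusted p 2.61e-06). The membrane protein Csmd1 was higher by 3.13 (SE 0.38, adjusted p 5.93e-06). Lower genes were led by C1qbp (−1.05, adjusted p 1.38e-06), a mitochondrial protein that can bind C1q, and by the C1q chains C1qa (−2.94, adjusted p 3e-06) and C1qc (−2.98, adjusted p 4.77e-06).

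Compared with batch A young MSCs, batch C old MSCs likewise had 11 higher and 14 lower genes, beside 27.1% higher and 31.4% lower over all genes. They were led by C4a (2.17), the membrane regulator Cd46 (3.05) and Cfb (1.61) among the higher and by C1qc (−3.54), C1qa (−3.24) and Itgb2 (−2.87) among the lower genes, at adjusted p of 1.78e-06 or below (edgeR). By role, 4 of 6 tested membrane regulators were higher and 1 lower in this comparison, whereas 7 of 8 tested receptors were lower. Between batch C old and batch B old MSCs, 3 of 6 membrane regulators were higher and 1 lower, and 7 of 8 receptors were lower. These lists are small, and whether their counts exceed the shares over all genes was not tested.

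**Figure D4:**
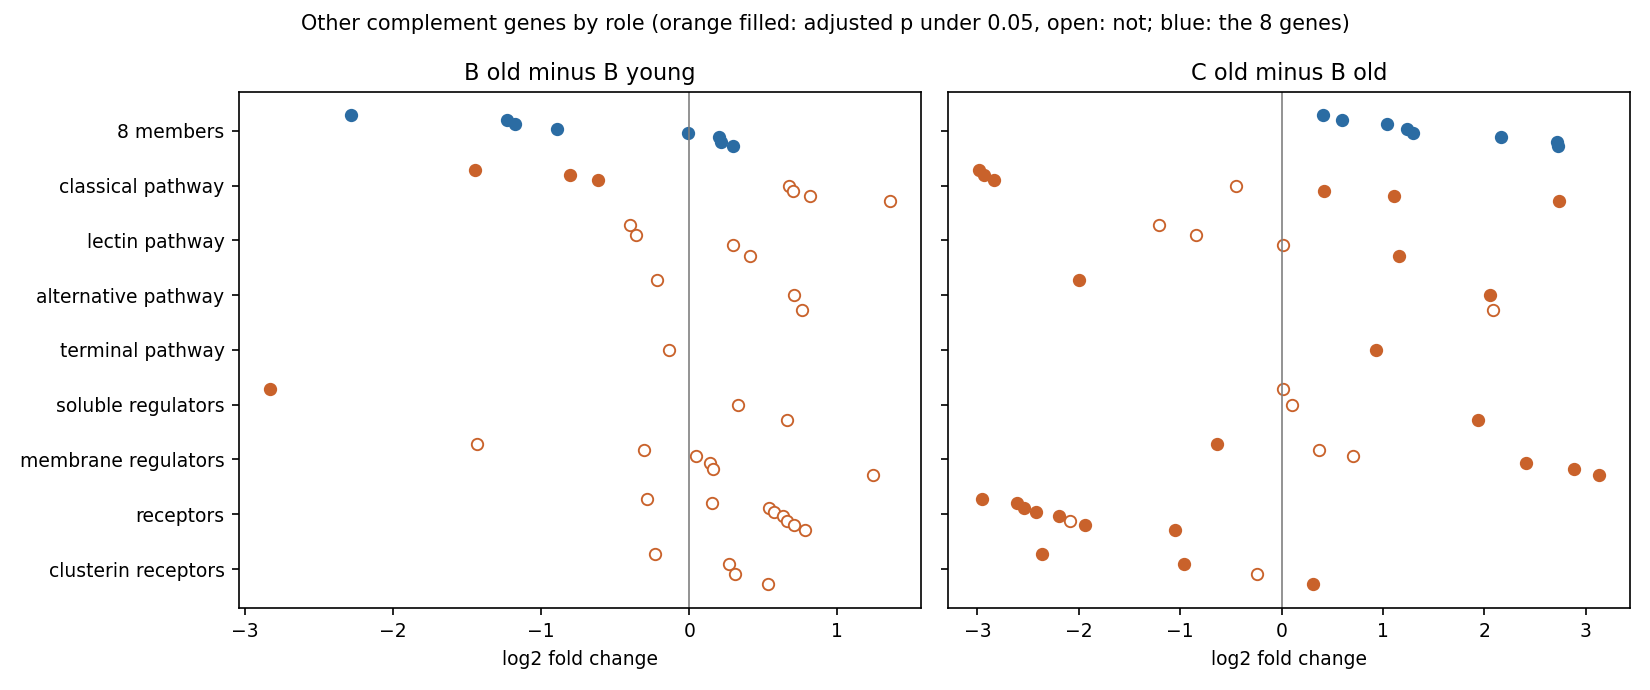
Log2 fold change of the 8 genes (blue) and of 36 further complement genes by role (orange, filled where the adjusted p of edgeR was under 0.05 and open where it was not), for old minus young MSCs of batch B and for batch C old minus batch B old MSCs. In batch B the 4 filled points lie below 0, and between the old groups 7 of the 8 receptors are filled and below 0 while all 8 blue points are above 0.

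The C1q chains and most receptors were low where the leukocyte markers were low, whereas 7 of the 8 genes were highest there. C1qa, the recognition chain that in most tissues is made by macrophages, was at 47.4, 68.6, 126 and 91.8 CPM in batch A young, 49.7 and 26.5 CPM in batch B young, 75.6 and 59.5 CPM in batch B old, and 8.18, 10.7 and 7.54 CPM in batch C old libraries. The order of the libraries in C1qa was that of the summed leukocyte markers in each group. In batch C old MSCs, where these markers were lowest, C3, C4b, C1s1, C1ra, Serping1, Cd55 and Cd59a were highest. In batch B old MSCs, where Clu, C4b and C1ra were lowest, the markers summed to 769 and 1090 CPM. Lyz2 alone had a mean of 501 CPM there and of 337 CPM in batch A young MSCs, so that the sum does not show how single markers differed. Osteoblast markers also differed in sum, and their sum was higher in old than in young MSCs of batch B. They summed to 195 to 246 CPM in batch A young and 166 to 181 CPM in batch B young MSCs. In batch B old MSCs they summed to 324 to 345 CPM, and in batch C old MSCs to 407 to 580 CPM. Alpl made up most of this sum in batch B, with means of 120 CPM in young and 237 CPM in old MSCs. Of the other osteoblast markers, Ibsp and Sp7 were higher in old MSCs of batch B without overlap, Bglap and Dmp1 overlapped, and Phex was lower. Adipocyte markers summed to 123 to 159 CPM in batch C old MSCs, compared with 31.4 to 68.9 CPM in all other libraries. Most of this sum was Lpl, with a mean of 108 CPM in batch C old MSCs. The part of these marker differences in the levels of complement genes was not tested.

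**Figure D5:**
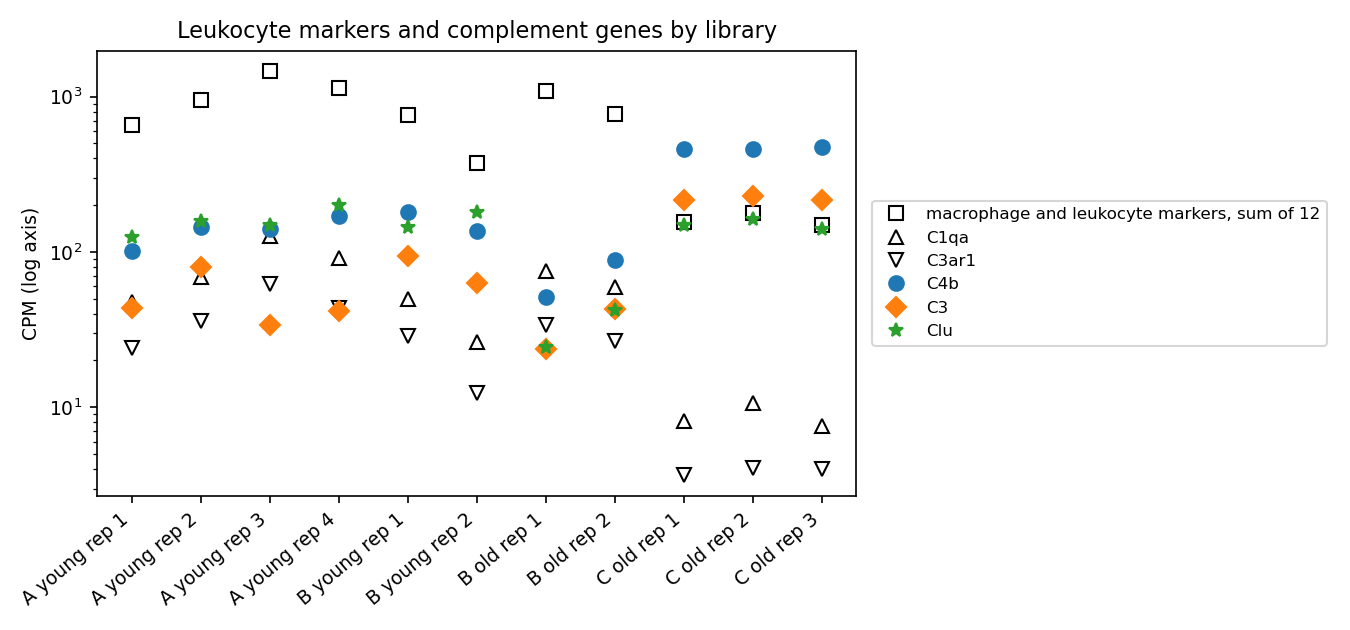
Level in CPM (log axis) of the sum of 12 macrophage and leukocyte markers, of C1qa and the C3a receptor gene C3ar1, and of C4b, C3 and Clu in each of the 11 libraries. In the 3 batch C old libraries the marker sum was 150 to 178 CPM and C1qa 7.54 to 10.7 CPM, whereas C4b was 457 to 471 CPM.

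The genes whose pattern over the 11 libraries was most like that of Clu were Chrdl1, Nckap5, Foxc1, Reck and Lrba, with Pearson correlations of log2 CPM of 0.971, 0.964, 0.959, 0.956 and 0.95. Chrdl1 encodes an antagonist of bone morphogenetic proteins, and its mean level in CPM was 132 ± 35.5 in batch A young (SD, n = 4), 141 ± 13.1 in batch B young (SD, n = 2), 32.3 ± 16.6 in batch B old (SD, n = 2) and 131 ± 18 in batch C old MSCs (SD, n = 3). Reck, an inhibitor of matrix metalloproteinases, was at 118 ± 16.9, 113 ± 7.18, 53.1 ± 7.74 and 109 ± 4.24 CPM in the same order. Without the 2 batch B old libraries the correlations were 0.476, 0.304, 0.535, 0.203 and 0.331 over 9 libraries, so that the likeness rests on the low level in those libraries. When libraries were scaled by total counts, 3 of the 5 genes (Chrdl1, Nckap5 and Reck) were again among the 5 most alike. Among the 8 genes, C3 and C4b had a correlation of 0.94 with all libraries and of 0.92 without batch B old, and the correlations of Clu with the other 7 genes lay between −0.17 and 0.09 without batch B old. These values are descriptions over libraries that share batches, and they were not tested.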

How the data were processed

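Polyadenylated RNA was sequenced in 11 MSC libraries, and the authors deposited raw counts per Ensembl gene, without normalisation. The submitters' processing notes name mm10 and GRCm38, whereas the aligner, the counter and the use of strand are not given in the sources used here. Identifiers were matched to GENCODE M21 (28179 of 28222 genes), from which exon lengths were taken. The members and gene lists were chosen with earlier results of these data known.

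Counts were analysed in R 4.3.3 with edgeR 4.0.16. The filter on low counts was filterByExpr (minimum count 5), scaling was by TMM factors, and a quasi-likelihood model with 4 groups (batch and age) was fitted to all 11 libraries. Tests were two-sided, and p-values were adjusted after Benjamini and Hochberg over 16132 genes, with 0.05 as the threshold. For log2 CPM a prior count of 2 was used. Scripts were tested on simulated data. Of the 57 further complement genes, those past the threshold in batch B were named, and elsewhere the 3 of each direction with the lowest p-value. Genes like Clu were the 5 with the highest Pearson correlation, without predicted genes. Alternatives were RLE factors, total counts, no filter, a minimum of 10 counts, DESeq2 1.42.0, limma-trend (limma 3.58.1), only the 2 groups compared, the replicate number as a block and leaving out each library. An offset for exon length (loess, span 0.3) was added after the data were seen.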

Additional observations from a re-analysis of the deposited data

Results flagged for a closer look

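For 3 of the 8 genes the old-young difference had opposite directions in batch B and between batch C old and batch A young MSCs, with no overlap of libraries in either. C3 had log2 fold changes of −1.23 and 2.15, C4b of −1.18 and 1.74, and C1ra of −0.90 and 0.40, respectively. The difference between these differences was not tested, and in the second comparison age and batch cannot be told apart. No single library stood apart from its group in a group of 4.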

How the results depend on the processing

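The alternatives changed counts of genes more than values of the 8 genes. In batch B, the 360 genes past the threshold became 1094 without a filter, 640 with DESeq2 and 123 with only the 2 groups, and 84 (without batch B old replicate 1) to 2007 (without batch B young replicate 2) when a library was left out. The 4 further complement genes became 14 without a filter (9 of them higher), 2 with total counts and 1 with only the 2 groups, and 0 to 4 when a library was left out. Between young groups, 4171 genes became 2686 with only the 2 groups, and 1701 to 5348 when a library was left out, and the 15 further complement genes became 2 to 16. There C3 passed the threshold with total counts (0.76) and without a filter (0.67), and Cd55 without a filter (0.68).

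After group means were removed, correlations of same-numbered libraries of different groups were between −0.111 and 0.135. Within batch B they were 0.037 for the same and −0.037 for different numbers. With 2 libraries per group these are mirror values, so that the check cannot exclude pairing there. With the replicate block, 2566 genes and 4 further complement genes passed between young groups, and C1s1 was at 0.42, past the threshold no longer. Clu in batch C old minus batch A young MSCs turned to 0.28 with total counts and to 0.07 with the replicate block.

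When a library was left out, differences within batch B ranged from −2.75 to −1.93 for Clu, −1.73 to −0.85 for C3, −1.63 to −0.82 for C4b, −0.22 to 0.18 for C1s1, −1.02 to −0.77 for C1ra, −0.04 to 0.44 for Serping1, −0.22 to 0.53 for Cd55 and 0.10 to 0.50 for Cd59a. Between young groups they ranged from 0.34 to 0.99 for C3, −0.02 to 0.38 for C4b, 0.41 to 0.64 for C1s1, 0.19 to 0.38 for C1ra, 0.34 to 0.97 for Cd55 and −0.07 to 0.33 for Cd59a, and between old groups from 1.81 to 2.62 for Clu, 0.37 to 0.85 for Serping1 and 0.37 to 0.46 for Cd59a. Clu in batch C old minus batch A young MSCs ranged from −0.16 to 0.07. The causes were not tested. The exon length offset changed no call of the 8 genes. Groups of 2 libraries limit the precision in batch B, as does the depth for Cd55.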
